A study of Homo sapiens with 4 samples.

Results

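Long genes, here those of at least 100 kb, were chosen by length alone from tables of read coverage around human gene starts. Of the 9667 genes in the tables, 8875 were shorter, and the long genes, called members below, were the other 8.19%: 396 of 100 to 150 kb, 309 of 150 to 300 kb and 87 of at least 300 kb. The study asked whether CFAP20 is an RNA-binding protein, and it used FLASH-seq in RPE1, a human cell line immortalised from retinal pigment epithelium. In FLASH-seq, ultraviolet light crosslinks proteins to RNA in contact with them, the biotin-tagged protein of interest is captured on streptavidin beads, RNase I trims the RNA, and the remaining fragments are sequenced. All 4 libraries came from RPE1 iCas9 p53/puro-dKO cells, which carry an inducible Cas9 and lack p53, and all 4 carried the CFAP20 knockout. The 2 tagged-CFAP20 libraries came from knockout cells that expressed FLASH-BIO-CFAP20, a biotin-tagged form of the protein. The 2 CFAP20-KO libraries came from knockout cells without it and were the negative control. The labels give neither the promoter that drives the tagged protein nor whether the cells were 1 clone. They also do not say that replicates were separate cultures, so p-values cover the spread of these 4 libraries alone, and that spread can be technical.

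CFAP20 is found in cilia and flagella, where it takes part in the microtubule structure of the axoneme. RNA polymerase II needs a long time to cross a long gene, and most of the transcript it makes is intron that is spliced out and degraded. Intron signal can therefore come from unspliced or freshly excised RNA, whereas exon signal can come from both nascent and mature RNA. The signal was not split by strand, so antisense and background reads count as well. The distinction between these sources is background and was not measured separately here.

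Members ranged from 100.013 to 1228 kb in length, with a median of 150.3 kb. CEP70 (100.013 kb) and CLCN3 (100.02 kb) lay just inside the limit, and ENSG00000249036 (99.796 kb) and OTOG (99.778 kb) just outside it. By the GENCODE 44 annotation of hg38, 164 members were long noncoding RNAs, 2 were pseudogenes, 5 had no match, and all the others were protein coding. Signal was read in bins of 200 bp from the gene start to 100 kb downstream, so each member has 500 bins and its part beyond 100 kb was not seen. Every deposited value was a whole multiple of 1 step per library, taken as 1 read overlapping 1 bin and called a read overlap here. Signal is the deposited, normalised value, and its steps were 83.0 and 276.88 in the first and second CFAP20-KO library and 12.85 and 13.93 in the first and second library with the tagged protein. A single read in a knockout library therefore weighs far more than in a tagged-CFAP20 library.

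Depth differed strongly between the groups. Members held 3127 read overlaps over both CFAP20-KO libraries, 2192 of them in replicate 1, and 33069 and 27560 in the tagged-CFAP20 libraries. Signal was present on 49.7% and 35.0% of members in the knockouts and on 81.7% and 80.2% with the tagged protein, and 76 members had none in any library. A value of 0 still allows 3 reads, for counting error only. In signal that floor was 348.3 and 1162 for the CFAP20-KO replicates and 53.9 and 58.5 for the tagged-CFAP20 replicates. Coding bins of CFAP20 itself held 0 overlaps in both knockouts and 36 and 38 with the tagged protein. Of 5 retinal pigment epithelium markers, RPE65 held 0, 0, 4 and 2 overlaps and RLBP1 0, 0, 1 and 0 in the 4 libraries in the same order. OTX2 held 0, 0, 26 and 34, PAX6 1, 1, 85 and 81, and MITF 5, 0, 31 and 21. The step, and not the labels, sets the unit of signal, so a factor common to all genes of a library would go unseen, and ratios within a library were used wherever possible.

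Sequences under 2 well-covered intron bins show what deep intron signal of long genes can look like. In each, the strand is that of the gene, written 5′ to 3′, with coordinates in hg38, and capitals mark runs of at least 4 adenines. The bins lie in MAPK8 (chr10:48337539-48337738, plus strand), which encodes the stress kinase JNK1, and in RFX7 (chr15:56222367-56222566, minus strand), a transcription factor gene.
MAPK8 intron: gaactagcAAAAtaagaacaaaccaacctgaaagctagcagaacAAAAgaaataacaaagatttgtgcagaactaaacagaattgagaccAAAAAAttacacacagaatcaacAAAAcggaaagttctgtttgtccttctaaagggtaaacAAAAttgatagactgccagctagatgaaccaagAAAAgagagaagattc
RFX7 intron: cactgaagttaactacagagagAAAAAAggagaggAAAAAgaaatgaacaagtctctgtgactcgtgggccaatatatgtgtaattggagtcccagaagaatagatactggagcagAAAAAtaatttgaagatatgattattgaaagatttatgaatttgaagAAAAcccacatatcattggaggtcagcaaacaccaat

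The MAPK8 and RFX7 bins were chosen after their values were seen. They are among the intron bins at least 5 kb (25 bins) from an exon with most overlaps in both tagged-CFAP20 libraries. The MAPK8 bin held 6 and 5 overlaps with the tagged protein and the RFX7 bin 6 and 4, and both held 0 in both knockouts. That 0 cannot separate the groups, because the bins were ranked by tagged-CFAP20 overlaps and the knockout libraries were far shallower. Runs of 20 bases from the MAPK8 bin and from the RFX7 bin each occurred a median of 1 time in hg38. The same ranking also gave a bin in SPOCK1 with 7 and 7 tagged-CFAP20 overlaps and another in FRMD5 with 5 and 4. Their runs of 20 bases occurred a median of 5659 and 45 times, so well-covered deep intron bins can also be repeated sequence.

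Deep intron bins, those at least 5 kb from any exon of their gene within the window, held more adenine and less thymine the more reads covered them. The 197651 such bins with no tagged-CFAP20 overlap averaged 28.6% adenine and 31.9% thymine on the sense strand. The 1886 bins with 2 pooled overlaps averaged 30.5% adenine, and the 239 bins with 5 or more averaged 38.3% adenine and 22.6% thymine. Guanine and cytosine together stayed near 40%, at 39.5% with no overlap and 39.1% with 5 or more. A run of 5 thymines occurred in 49.0% of uncovered bins and in 15.5% of those with 5 or more overlaps, and a run of 5 adenines in 37.7% and 63.2%. The knockouts moved the same way. Bins with no CFAP20-KO overlap averaged 28.6% adenine, the 1235 with 1 overlap 29.9%, and the 32 with 2 or more 35.0%, with thymine at 31.8%, 30.8% and 27.1%. These are descriptions without a test, since bins of 1 gene and 1 read are not independent.

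**Figure D1:**
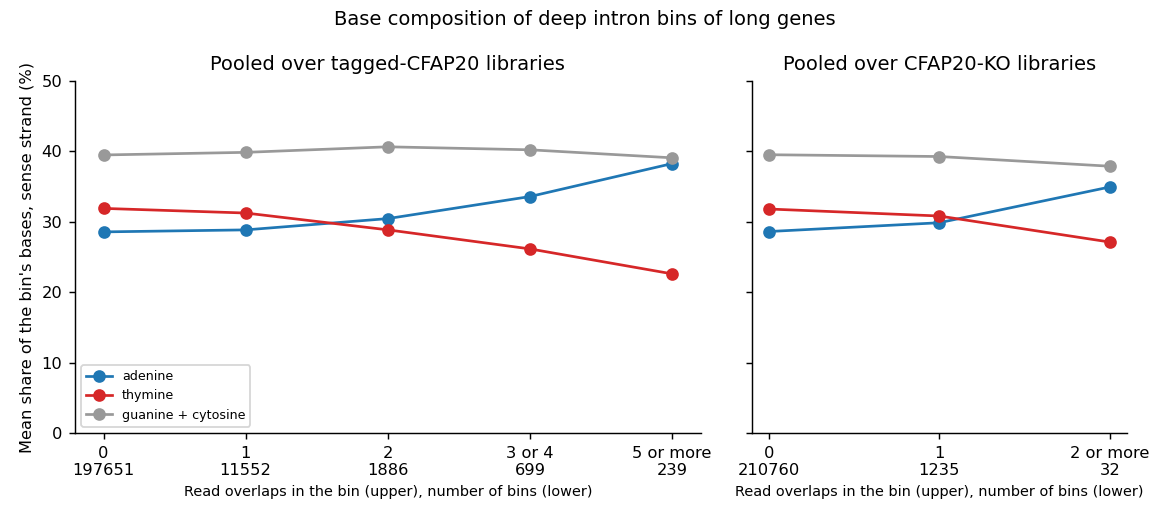
Mean base composition (%, sense strand) of deep intron bins of long genes by the number of read overlaps in the bin, pooled over the 2 tagged-CFAP20 libraries (left) and the 2 CFAP20-KO libraries (right); the number of bins stands under each point. Adenine climbs from 28.6% to 38.3% on the left and from 28.6% to 35.0% on the right, while thymine drops and guanine plus cytosine changes little.

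Adenine content was also split by repeated sequence. A bin was counted as repeated where its runs of 20 bases occurred a median of at least 10 times in the genome. That was so for 14.7% of every 20th uncovered bin, 12.8% of bins with 1 tagged-CFAP20 overlap and 27.6% of those with 5 or more. Among bins that were not repeated, adenine averaged 29.2% where uncovered, 29.0% with 1 overlap, 29.9% with 2, 32.5% with 3 or 4 and 36.8% with 5 or more. Among repeated bins the same averages were 25.1%, 27.7%, 34.6%, 39.2% and 42.2%.

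Between the groups, however, the adenine content of deep intron signal was alike within the spread of the libraries. Weighted by overlaps, the adenine share was 29.9% and 30.7% in the CFAP20-KO replicates and 30.4% and 30.7% in the tagged-CFAP20 replicates, and the groups overlap. The difference of means was 0.24 percentage points, with an exact two-sided permutation p of 1. The thymine share was 30.9% and 30.1% in the knockouts and 29.4% and 29.5% with the tagged protein, without overlap, a difference of -1.03 points. Its permutation p was 0.333, the smallest that 6 assignments of 4 libraries can give, and this holds for every such p of 0.333 here. In deep introns of genes of 10 to 100 kb, the adenine share was 28.5% and 28.4% in the knockouts and 29.2% and 29.5% with the tagged protein.

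Summed over members, signal was 181936 and 258883 in the CFAP20-KO libraries and 425047 and 384003 in the tagged-CFAP20 libraries. The group means were 220409 ± 54410 and 404525 ± 29023 (SD, n = 2 each), a ratio of 1.84, and the groups do not overlap (exact permutation p = 0.333). Over all genes the same ratio was 2.17. Libraries were also brought to the same total over the bins used, 50 to 5 kb upstream and 0 to 100 kb downstream of starts. With these equal window totals, the log2 difference on members turned from 0.88 to -0.24, so its direction rests on the normalisation.

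Long genes took a smaller share of gene signal with the tagged protein, and a ratio of that kind does not depend on the scale of a library. They held 23.97% and 23.95% of all gene signal in the CFAP20-KO replicates and 20.03% and 20.44% in the tagged-CFAP20 replicates. The difference was -3.73 percentage points (exact permutation p = 0.333). The tagged-CFAP20 over CFAP20-KO ratio of summed signal was 1.92 for members of 100 to 150 kb, 1.76 for those of 150 to 300 kb and 1.58 for those of at least 300 kb. It was 2.45 for the 3214 genes of 3 to 10 kb and 2.26 for the 5661 of 10 to 100 kb. Against genes of 10 to 100 kb, the log2 ratio of summed long-gene signal was -1.53 in both CFAP20-KO libraries and -1.85 and -1.81 in the tagged-CFAP20 libraries (exact permutation p = 0.333).

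Exons took a larger part of long-gene signal with the tagged protein. Bins that touch an annotated exon of the member were 4.94% of member bins, and coding bins were 2.82%. Exon bins held 16.1% and 15.2% of member signal in the CFAP20-KO replicates and 25.3% and 24.9% in the tagged-CFAP20 replicates, a difference of 9.43 percentage points (exact permutation p = 0.333). With every covered bin counted once, the difference was 2.74 points. Coding bins held 13.1% and 12.1% against 21.4% and 20.8%. Introns still held most of the signal in every library, at 82.8% and 83.2% in the knockouts and 73.9% and 74.3% with the tagged protein. Per kb, exon bins were 3.73 and 3.49 times as dense as intron bins in the knockouts and 6.54 and 6.41 times as dense with the tagged protein. In the deposited units, exon signal was 2.96 times as high with the tagged protein as in the knockouts and intron signal 1.64 times. Genes of 10 to 100 kb showed a shift too, so it was not confined to long genes. Their exon bins held 46.2% and 48.2% of signal in the knockouts and 54.1% and 54.4% with the tagged protein.

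The exon contrast of the knockouts was smaller in each longer class, and that of the tagged-CFAP20 libraries was smallest in the longest class. For genes of 3 to 10 kb, exon over intron density was 5.31 and 5.54 in CFAP20-KO replicates 1 and 2. For genes of 10 to 100 kb it was 4.42 and 4.79. It was 4.25 and 3.77 for members of 100 to 150 kb, 2.86 and 3.03 for those of 150 to 300 kb, and 1.40 and 1.38 for those of at least 300 kb. In the tagged-CFAP20 replicates the same values were 5.83 and 6.08, then 6.07 and 6.13, then 6.55 and 6.66, then 6.30 and 5.75, and then 3.66 and 3.60. The groups do not overlap in any of these classes. In the longest class, knockout signal was only 16351 and 25473, at steps of 83.0 and 276.88 per read overlap. Exon bins held 5.58% and 5.43% of knockout signal in that class, so its knockout contrast rests on few exon overlaps. Against genes of 10 to 100 kb, the log2 of this contrast in long genes was -0.25 and -0.45 in the knockouts and 0.11 and 0.06 with the tagged protein (exact permutation p = 0.333).

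**Figure D2:**
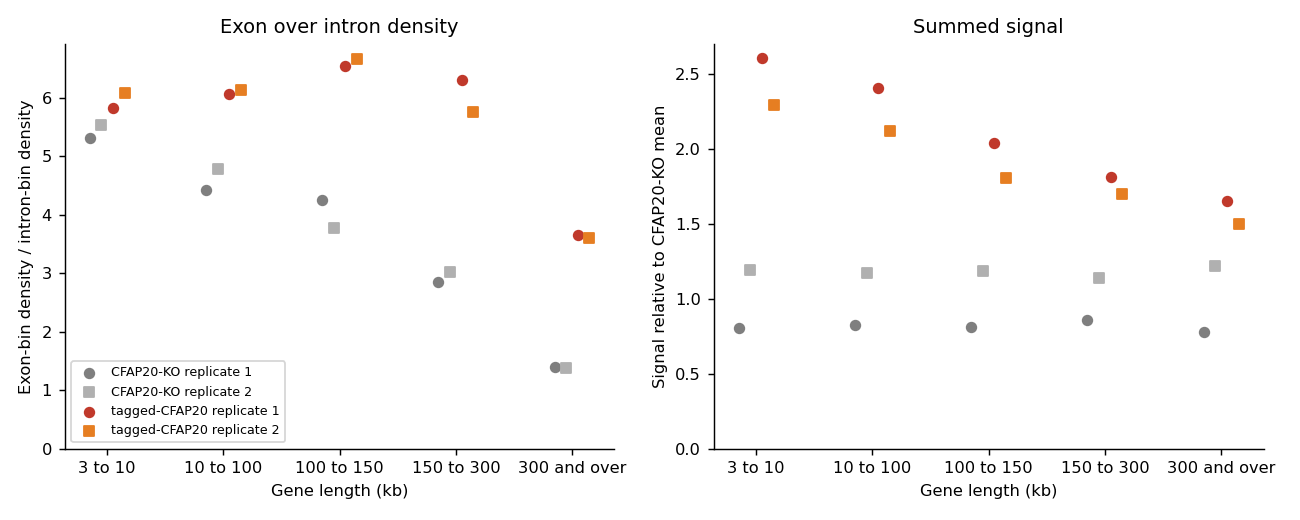
Exon over intron density (left) and summed signal divided by the CFAP20-KO mean (right) in each of the 4 libraries, by gene length class in kb; each point is 1 library. In exon over intron density the groups lie apart in every class. The CFAP20-KO libraries stand at 4.42 and 4.79 against 6.07 and 6.13 at 10 to 100 kb. At 100 to 150 kb they stand at 4.25 and 3.77 against 6.55 and 6.66, and at 300 kb and over at 1.40 and 1.38 against 3.66 and 3.60. The CFAP20-KO values at 300 kb and over rest on few exon overlaps. The signal ratio drops from 2.45 to 1.58 along the classes.

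The excess over introns extended beyond the exon bins themselves. With the density of deep intron set to 1 in each library, exon bins stood at 4.37 and 3.72 in the CFAP20-KO replicates and 8.74 and 8.40 in the tagged-CFAP20 replicates. The next bin stood at 1.94 and 1.91 against 3.48 and 3.33, and the third bin away at 1.15 and 0.735 against 2.34 and 2.15. From 10 to 24 bins away the values were 1.31 and 1.13 against 1.30 and 1.29, where the groups overlap (exact permutation p = 1). Deep intron held 40.3% and 44.7% of member overlaps in the knockouts and 31.6% and 32.4% with the tagged protein. Annotated exons were used whether or not these cells use them, so unannotated exons count as intron here.

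**Figure D3:**
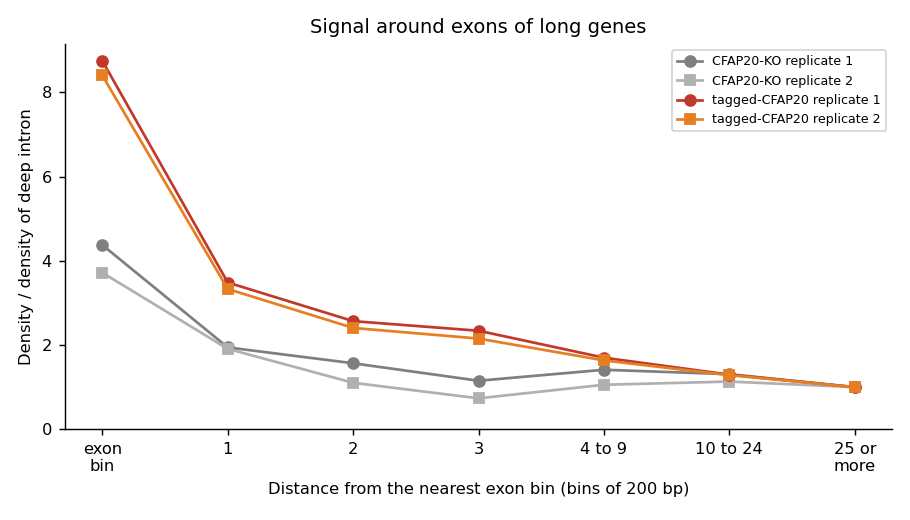
Signal density of long genes by distance from the nearest exon bin (bins of 200 bp), relative to deep intron at least 25 bins away, in each of the 4 libraries. Exon bins reach 8.74 and 8.40 in the tagged-CFAP20 libraries and 4.37 and 3.72 in the CFAP20-KO libraries, and the groups meet at 10 to 24 bins, at 1.30 and 1.29 against 1.31 and 1.13.

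By distance from the gene start, tagged-CFAP20 signal was higher at the far end of the window than from 10 to 50 kb, and knockout signal showed no steady trend. In 10-kb windows, the tagged-CFAP20 replicates held 10.5% and 10.8% of member signal in the first 10 kb and went from 7.52% and 7.48% of member signal at 10 to 20 kb to 12.0% and 11.9% at 80 to 90 kb. The CFAP20-KO replicates ranged from 8.21% to 12.5% and from 7.70% to 11.2% with no order in common. The part from 50 to 100 kb held 51.5% and 49.3% of member signal in the knockouts and 55.9% and 55.4% with the tagged protein, a difference of 5.28 percentage points (exact permutation p = 0.333). In members of at least 200 kb it held 46.0% and 47.1% against 50.5% and 49.7%, so tagged-CFAP20 signal was close to evenly split there. Exon bins became more common along the same path, from 2.82% of bins at 10 to 20 kb to 6.93% at 90 to 100 kb. Within intron bins alone, density at 50 to 100 kb over that at 0 to 50 kb was 0.980 and 0.908 in the knockouts and 1.17 and 1.16 with the tagged protein (exact permutation p = 0.333). Within exon bins it was 1.43 and 1.36 against 1.46 and 1.38, and the groups overlap (exact permutation p = 0.667).

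**Figure D4:**
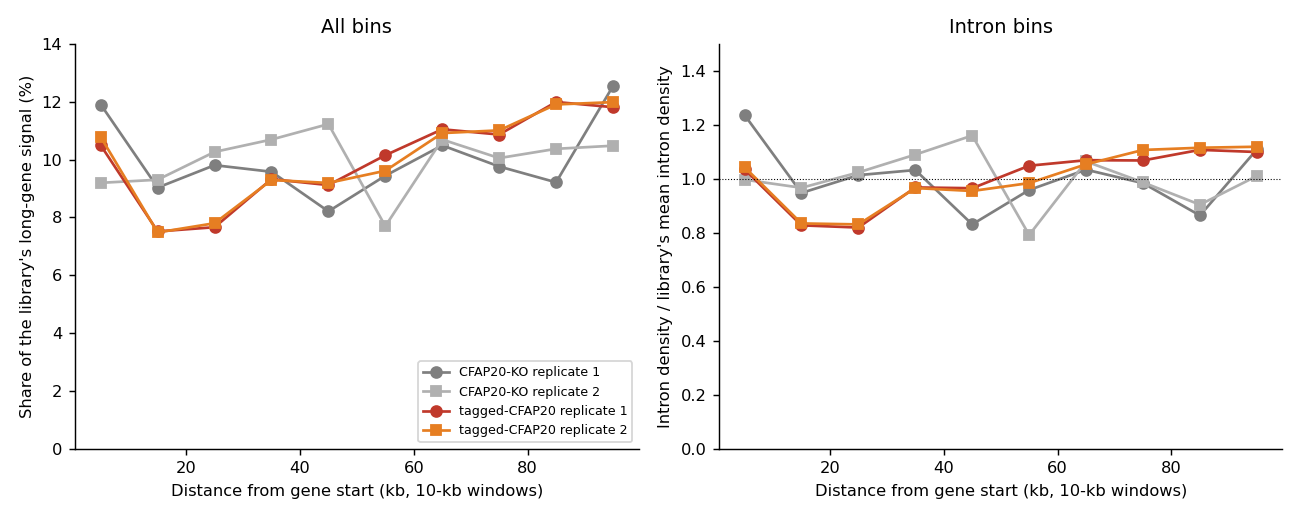
Share of each library's long-gene signal (left, %) and intron-bin density relative to the library's mean intron density (right) in 10-kb windows by distance from the gene start. The tagged-CFAP20 lines lie on top of each other and, after 10.5% and 10.8% in the first 10 kb, climb from 7.52% and 7.48% at 10 to 20 kb to 12.0% and 11.9% at 80 to 90 kb, whereas the CFAP20-KO lines cross.

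The gene start held more signal than an even spread over the window would give. The first 1 kb is 1 part in 100 of the window and held 1.78% and 1.60% of member signal in the knockouts and 2.55% and 2.62% with the tagged protein, a difference of 0.895 percentage points (exact permutation p = 0.333). In members of at least 200 kb the groups overlapped, with a difference of 0.623 points (exact permutation p = 1). Its density relative to 5 to 100 kb was 1.79 and 1.61 against 2.58 and 2.66. These shares rest on 39 and 15 overlaps in the CFAP20-KO libraries and on 1566 over both tagged-CFAP20 libraries. Exon and intron bins of the first 1 kb were not separated. Over the first 10 kb, exon bins were 9.20% of bins, against 4.94% over the window. Intron density in the first 10 kb was 1.24 and 0.997 times the library's mean in the knockouts and 1.04 and 1.04 times with the tagged protein. From 50 to 5 kb upstream of the start, signal per kb was lower than over the gene in every library. Body over upstream density was 2.47 and 2.50 in the knockouts and 2.05 and 2.07 with the tagged protein, so the contrast with the flank was smaller with the tagged protein (exact permutation p = 0.333). Other genes can lie in these flanks.

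The members with most signal encode adhesion, matrix, membrane and regulatory proteins. ZMIZ1, a transcriptional coactivator, held a signal of 2822 and 3323 in the CFAP20-KO replicates and 6979 and 6270 in the tagged-CFAP20 replicates. In limma's moderated test on log2(signal + 10) over all genes, with Benjamini-Hochberg adjustment, its log2 difference was 1.11 (SE 0.12, adjusted p = 0.00758). With equal window totals that difference was -0.025 (limma adjusted p = 0.900). SLC4A7, a sodium bicarbonate cotransporter, held 2075 and 2215 against 7712 and 6702, and its log2 difference was 1.74 (SE 0.10, limma adjusted p = 0.00597), or 0.61 with equal window totals (limma adjusted p = 0.0768). Its exon bins carried 38.6% of its tagged-CFAP20 signal although they were 10.2% of its bins. Neither gene's groups overlap.

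EXT1, which builds heparan sulfate chains, held 3486 and 3876 against 5437 and 5225, a ratio of 1.45 (log2 0.53, limma adjusted p = 0.0161). With equal window totals its log2 difference was -0.60 (limma adjusted p = 0.0630). PICALM, a clathrin adaptor, held 2905 and 4153 against 5218 and 4905, and it did not pass the test (limma adjusted p = 0.152). ITGA11, a collagen-binding integrin subunit, held 3237 and 3876 against 4357 and 4110, a ratio of 1.19 (limma adjusted p = 0.211). With equal window totals the log2 differences of PICALM and ITGA11 turned to -0.59 and -0.88 (limma adjusted p = 0.00833 and 0.0120).

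HPCAL1, a gene for a neuronal calcium sensor protein, held 26 and 3 overlaps in the knockouts, a mean signal of 1494, and a signal of 7082 and 6242 with the tagged protein, a ratio of 4.46 (limma adjusted p = 0.0509). Exon bins carried only 1.80% of its tagged-CFAP20 signal. COL12A1, a fibril-associated collagen, stood at the other end, with 62.1% of its tagged-CFAP20 signal in exon bins that were 24.6% of its bins. It held 12 and 9 overlaps in the knockouts, a mean signal of 1744, and a signal of 5848 and 4849 with the tagged protein, a ratio of 3.07 (limma adjusted p = 0.0921). PLA2R1, the phospholipase A2 receptor, held 1909 and 3323 against 4486 and 4055, and PHLDB2, a cortical adaptor at cell adhesions, held 1660 and 2215 against 4961 and 4305. PHLDB2 passed the test (log2 1.26, limma adjusted p = 0.0192), though not with equal window totals (log2 0.13, limma adjusted p = 0.203), and PLA2R1 did not (limma adjusted p = 0.184).

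PRR16, which encodes a regulator of translation, was the member among these 10 with less signal in the tagged-CFAP20 libraries. It held 3652 and 5261 in the CFAP20-KO replicates and 3162 and 2968 in the tagged-CFAP20 replicates, without overlap between groups. In limma its log2 difference was -0.52 and did not pass the test (adjusted p = 0.178). As a share of gene signal, in an exact binomial test of pooled reads, it was lower with an adjusted p of 3.04e-07.

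**Figure D5:**
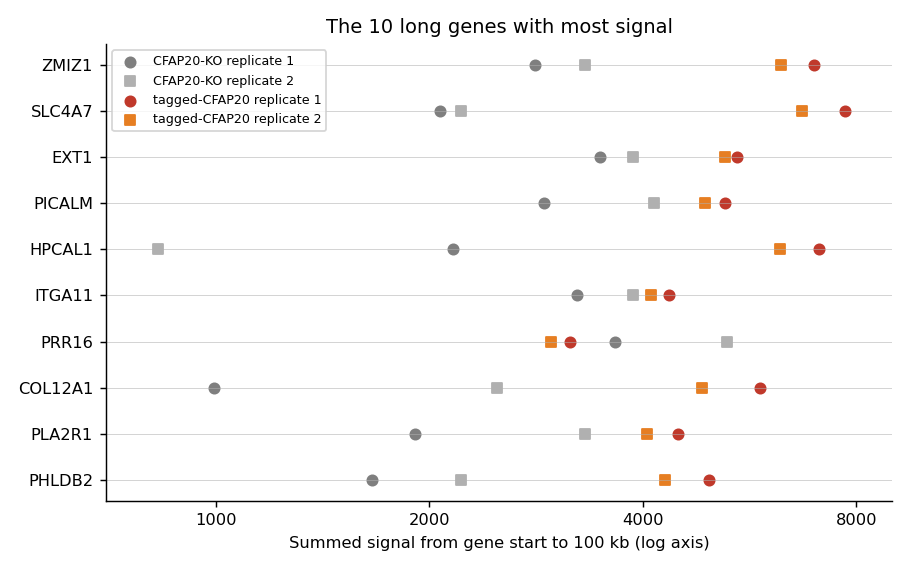
Summed signal from gene start to 100 kb downstream (log axis) of the 10 long genes with most signal in each of the 4 libraries; each point is 1 library. In 9 of the 10 genes both tagged-CFAP20 points lie above both CFAP20-KO points, and in PRR16 both lie below, at 3162 and 2968 against 3652 and 5261.

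Across all members, limma tested the 74.2% that were above 0 in at least 2 libraries. With the tagged protein 156 were higher and 2 lower at an adjusted p of 0.05, that is 26.5% higher, where 36.7% of all 4461 genes tested were called higher and 0.0672% lower. Calls in either direction were 24.3% of members and 33.2% of all genes with equal window totals, and 15.0% and 23.5% with a pseudocount of 1 read of the shallowest library. Most of these calls rested on empty knockouts. No read was found in either knockout on 140 of the 156, where 1548 of all 1636 genes called higher had none. Of the 140 members, 129 had a mean tagged-CFAP20 signal under 268, which 3 reads pooled over both knockouts would give. Members were at 0 in both knockouts less often than all genes tested, at 27.2% against 40.3%. The other 16 of the 156 had signal in both knockouts, among them MYOF, SEMA3C and MAPK8, named as examples after their values were seen. MYOF, a membrane-repair protein of the ferlin family, held 1079 and 1384 against 4460 and 4403 (log2 1.85, limma adjusted p = 0.00607). With equal window totals its log2 difference was 0.72 (limma adjusted p = 0.0187). That of MAPK8 was then -0.071 (limma adjusted p = 0.883). When limma was fitted only to genes above 0 in all 4 libraries, 0 members passed.

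Counting error alone gave fewer calls. In an exact binomial test of reads pooled within groups, on the deposited scale, 52 of 457 members with at least 10 pooled overlaps were higher and 1 lower, where 9.1% of 3309 genes were called higher and 0.0604% lower. Taken as shares of gene signal, 1 was higher and 2 were lower, where 0.121% and 0.272% of genes were called. The higher one was DYSF, the muscle membrane-repair protein dysferlin, with 4 and 0 overlaps in the knockouts and 266 and 260 with the tagged protein (exact adjusted p = 0.0400). Its ratio of pooled reads on the deposited scale was 13.1. The lower ones were PRR16 and ENSG00000272369, a long noncoding RNA. Reads of the 2 libraries of a group were pooled here, so these p-values do not include the spread between replicates.

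Of the 237 members with signal in all 4 libraries, 184 had a tagged-CFAP20 over CFAP20-KO ratio above 1 and 58 exceeded the ratio of 2.17 over all genes. Groups did not overlap in 121 in the higher and 16 in the lower direction, where 50.7% and 7.33% of the 1118 genes with signal in all libraries did so. The median log2 difference was 0.71 for these members and 0.74 for all such genes. Over all genes tested the medians were 1.65 for members and 2.10 for all, and with a pseudocount of 1 read of the shallowest library 0.41 and 0.37. Equal window totals moved the median of all genes by -0.53.

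By the naming rule, the 5 members with the largest positive change past the threshold and well covered with the tagged protein were UTP20, SLC9A7, LINC02742, ADAM32 and CWF19L2. Neither knockout held a read on any of the 5, which passed the filter through the tagged group alone, and without a filter none passed (limma adjusted p = 0.0815 for each). Their log2 differences depend on the pseudocount and are left out, and their folds are given against the pooled floor of 268. UTP20, a ribosome biogenesis factor, held 70 and 45 overlaps with the tagged protein, at least 2.85-fold higher, with 53.9% of its signal in exon bins that were 19.6% of its bins. SLC9A7, a sodium proton exchanger of the trans-Golgi network, held 45 and 44 overlaps, at least 2.22-fold higher, with 2.25% of its signal in exon bins. LINC02742, a long intergenic noncoding RNA, held 52 and 33 overlaps, at least 2.11-fold higher. ADAM32 and CWF19L2, a protein with a role in splicing, were at least 1.89-fold and 1.81-fold higher. All 5 folds hold on the deposited scale only. In the exact binomial test on that scale, UTP20 and LINC02742 passed (adjusted p = 0.00862 and 0.0443) and CWF19L2 did not (adjusted p = 0.0759).

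ENSG00000272369 was the member with the clearest lower signal. It is a noncoding RNA of 115 kb on chromosome 12 and held 2158 and 2769 in the CFAP20-KO replicates and 990 and 850 in the tagged-CFAP20 replicates. Its log2 difference was -1.40 (SE 0.24, limma adjusted p = 0.0235). With 26 and 10 overlaps in the knockouts it was also well covered there. The other member called lower, IRAG1, rested on 2, 1, 1 and 1 overlaps.

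The 5 longest members were nearly empty or alike between groups. GALNTL6, a glycosyltransferase-like gene of 1228 kb, held 0 and 0 overlaps in the knockouts and 13 and 4 with the tagged protein. EPHA6, an ephrin receptor, held 0, 0, 5 and 7. GRIK2, a kainate receptor subunit, held 0, 2, 5 and 11. PARD3B, a cell polarity gene, held 4, 4, 35 and 38, a signal ratio of 0.680, and ATRNL1 held 2, 4, 48 and 40, a ratio of 0.922. GALNTL6 and EPHA6 passed the limma test (adjusted p = 0.0252 and 0.00607) with tagged-CFAP20 signal under the pooled floor. Both passed the filter through the tagged group alone, and without a filter 0 members passed, so these calls cannot separate the groups.

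Well-covered members differed widely in where their signal lay. Among the 218 with at least 40 overlaps in each tagged-CFAP20 library, the share of signal in exon bins ran from 0% to 70.1% with a median of 24.1%. The share from 50 to 100 kb ran from 10.3% to 91.9% with a median of 57.3%. The latter was similar in the 2 tagged-CFAP20 libraries across these genes (Pearson r 0.806, Spearman rho 0.816), and it followed the share of a gene's exon bins that lie beyond 50 kb (r 0.488, rho 0.530). These are correlations across genes, which are not independent replicates.

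PRDM2, a histone methyltransferase, held most of its tagged-CFAP20 signal far from the start, with 91.9% between 50 and 100 kb. The deubiquitinase USP25, the mitochondrial enzyme HIBCH and the synaptotagmin SYT14 held 86.3%, 86.4% and 86.0% there. At the other end PLA2R1 held 10.3% beyond 50 kb, the F-box gene FBXL17 21.1%, SLC9A7 22.5% and NNT, the mitochondrial transhydrogenase, 23.0%. The genes of this paragraph were chosen for these shares, so they are descriptions.

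The counts of called genes in the lists below stand against 26.5% of members and 36.7% of all genes called higher in limma, and the summed ratios against 1.84 over all members. For the exact test on the deposited scale, 11.4% of members tested and 9.1% of all genes tested were higher. Of 7 members that are CFAP, cilium or intraflagellar transport genes, 1 passed limma, and the summed ratio was 2.91. DNAH14, an axonemal dynein heavy chain, held 4 and 5 overlaps against 177 and 163, and DYNC2H1, the motor of retrograde intraflagellar transport, held 5 and 5 against 191 and 162. Both were higher in the exact binomial test on the deposited scale (adjusted p = 0.000684 and 0.000987) and neither passed limma (adjusted p = 0.220 and 0.188). With equal window totals their log2 differences were 0.60 and 0.49 (limma adjusted p = 0.595 and 0.586). In the exact test on shares of gene signal, 0 genes of this list were called. CFAP299 held 2 and 0 against 64 and 44. DNAH7, at 0 in both knockouts and 20 and 18 overlaps with the tagged protein, was the gene that passed limma (adjusted p = 0.00597). Its tagged-CFAP20 signal was under the pooled floor, it passed the filter only through the tagged group, and it is outside the naming rule.

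Of 5 DNA repair and replication members, none passed limma at an adjusted p of 0.05, and the summed ratio was 2.87. In the exact test 2 were higher on the deposited scale, and 0 were called on shares of gene signal. BRIP1, a helicase of the Fanconi anaemia pathway, held 12 and 0 overlaps against 191 and 187 (exact adjusted p = 0.00246). POLQ, a polymerase of end joining, held 1 and 5 against 141 and 109 (exact adjusted p = 0.00433), and the chromatin remodeller ATRX held 12 and 1 against 92 and 91 (exact adjusted p = 0.563).

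Of 7 adhesion, matrix and integrin members, 2 passed limma, EXT1 and the sparsely covered SULF1, whose signal lay under the pooled floor, and the summed ratio was 1.53 and the median log2 difference 0.88. With equal window totals that median was -0.25. Of 5 chromatin and transcription regulators, ZMIZ1 passed limma on the deposited scale but not with equal window totals, as given above, while RUNX1 (4 and 5 overlaps against 144 and 169, limma adjusted p = 0.251) and ZEB1 (14 and 5 against 139 and 104, limma adjusted p = 0.364) did not pass. Of the 3 cytoskeletal members, DYNC2H1, CALD1 (2 and 5 against 62 and 82) and CLASP2 (4 and 2 against 51 and 50), none passed limma. Neither did the ubiquitin ligase HERC2 (7 and 0 against 106 and 48) nor PICALM, the 2 ubiquitin, kinase and trafficking members.

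TNRC6B, an RNA regulator, held 5 and 2 overlaps against 95 and 60, a ratio of 2.12, and did not pass limma (adjusted p = 0.190). USP25 was the 1 common fragile site gene among the members, at 14 and 3 against 150 and 141 (limma adjusted p = 0.0749). The neuronal genes CNTN6 (0, 0, 2 and 1) and GRIK2 were almost empty. Among markers of blood cells, CD226 held 2, 0, 2 and 6 overlaps, and THEMIS and IKZF1 were at 0 in all 4 libraries. The lists were small, and their counts and ratios stand as descriptions.

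Noncoding members carried little of the signal. Protein-coding members held 96.1% and 95.9% of member signal in the knockouts and 97.3% and 97.3% with the tagged protein. The 164 long noncoding RNAs held 3.83% and 4.06% against 2.72% and 2.69%. Signal was spread over many members, with the top 10 holding 15.0% and 14.5% in the knockouts and 13.5% and 13.3% with the tagged protein. Across members, the 2 tagged-CFAP20 libraries were alike at Pearson r 0.988 and the 2 knockouts at 0.720, and CFAP20-KO replicate 1 and tagged-CFAP20 replicate 1 at 0.824.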

How the data were processed

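FLASH-seq signal was analysed in 4 libraries. Sample titles gave the group and the replicate number. Per the submitters' processing notes, UMI-tools 1.0.0, Bowtie2 2.3.5, HOMER 4.8.2, R 4.0.5 and the hg38 build were used, without roles or order. The normalisation and the placing of reads with several matches are steps not given in the sources used here. Signal (read coverage) was deposited by the authors as 1 table per library in bins of 200 bp from 100 kb upstream to 100 kb downstream of each gene start, not split by strand, with other deposited columns that describe the gene (position, strand and length). Genes absent from a table were set to 0. Left out were 1 column that matched none of the samples and the bins outside 50 to 5 kb upstream and 0 to 100 kb downstream. A read covered 1.40 bins on average.

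Signal was summed from the start to the end of a gene within 100 kb. limma 3.58.1 in R 4.3.3 (trend, moderated) tested log2(signal + 10) for the 4461 genes with signal in 2 or more libraries, adjusting p-values by Benjamini and Hochberg. Values per library were compared by exact two-sided permutation over 6 assignments. Pooled reads were compared by exact binomial tests on overlaps divided by the bins per read, which cover counting error only. Simulated data at these depths had counting error as the only noise, and changes only in genes well covered in both tagged-CFAP20 libraries. There limma recovered most changed genes but also called unchanged ones, so its calls are given with the floor of 3 reads and the exact tests. Recovery of sparsely covered genes was not tested. Exons come from GENCODE 44, which matched 787 of 792 members. The named genes were the 10 with most signal, the 5 with the largest change past the threshold in each direction whose groups do not overlap and whose signal is above the median, the 5 longest, the 3 of each of 10 lists with most signal, and the 4 with the highest and the 4 with the lowest share beyond 50 kb. Genes outside this rule were named after their values were seen. The 6 bins ranked for their sequence and 1 named gene of the lists are not reported here. Members and lists were chosen with earlier results of these data known.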

Additional observations from a re-analysis of the deposited data

How the results depend on the processing

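The count of 158 members called in limma depended on nearly every choice tried. It was 88 with a pseudocount of 1 read of the shallowest library, 0 with no filter on low values, 0 among members above 0 in all 4 libraries, 53 in the exact binomial test on the deposited scale and 3 in the same test on shares. Leaving out 1 library gave between 0 and 442 calls, with 442 and 423 without CFAP20-KO replicates 1 and 2 and 0 without either tagged-CFAP20 replicate. It was 143 with equal window totals and 177 with a replicate block. Deviations of replicate 1 were not correlated between groups (r 0.00457, over 4461 genes). The knockouts were too shallow for this to show whether replicate numbers pair the libraries. The log2 difference in summed member signal was 0.88, turned to -0.24 with equal window totals, and its cause was not tested. The share of gene signal, the shares in the first 1 kb, beyond 50 kb and in exon bins, and the contrast with the upstream flank kept their direction in every alternative run for them, which included members of at least 200 kb, the members without the 10 with most signal and each library left out. The exon-bin difference fell from 9.43 to 2.74 points with every covered bin counted once, and the first 1 kb difference was 0.623 points with overlapping groups in members of at least 200 kb. The adenine difference of 0.24 points, examined with alternatives chosen after seeing the data, was -0.39 with every covered bin counted once, -0.42 in members of at least 200 kb and from -0.17 to 0.66 with 1 library left out. Depth of the knockouts limits every result on a single gene.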
